A study of Mus musculus with 16 samples.

Results

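The genes described here encode 3 families of cytosolic and microsomal conjugating enzymes: the glutathione S-transferases (GST), the UDP-glucuronosyltransferases (UGT) and the sulfotransferases (SULT). Every gene whose single annotated symbol begins with Gst followed by a class letter (a, k, m, o, p or t) and a digit, or with Ugt or Sult followed by a digit, was taken, and where a gene had several probe sets the brightest one, on average over the arrays, was used. This gave 42 of 18820 genes, of which 17 were GST, 10 were UGT and 15 were SULT genes. Whole livers of 16 male mice aged 7 days, on a mixed C57/BL6 - SV129Ola background, were measured on 1-colour arrays, with 1 array per animal and 4 animals per genotype. Mice labelled TRAF2/Casp-8LPC-KO (here TRAF2/Casp-8 KO) carried floxed Traf2 and floxed Caspase-8 alleles, deleted by alfp-Cre, a transgene driven by albumin and alpha-fetoprotein elements that is active in liver parenchymal cells. Mice labelled TRAF2/Casp-8LPC-KO/RIPK3-/- (RIPK3 triple KO) carried in addition a constitutive deletion of Ripk3, present in every cell. Mice labelled TRAF2/Casp-8/IKKbetaLPC-KO (IKKβ triple KO) carried in addition a floxed Ikkβ allele, deleted by the same Cre. Mice labelled WT were Cre-negative littermates that carried floxed alleles. The study's title names NF-κB and the death pathway called necroptosis, which depends on RIPK3, as its subject.

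Phase II conjugation makes drugs, bile acids, steroids, bilirubin and reactive metabolites more soluble, so that they can leave the hepatocyte in bile or blood. GST enzymes join electrophiles to glutathione, UGT enzymes of the endoplasmic reticulum transfer glucuronic acid from UDP-glucuronate, and SULT enzymes of the cytosol transfer a sulfonate group from the donor PAPS. Many of these genes are switched on around birth and are known targets of the electrophile sensor NRF2 and of the xenobiotic receptors AHR, CAR and PXR.

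Values are log2 signals as the authors deposited them after RMA, an array method that corrects background, normalizes arrays to one another and summarises probes. A difference is the mean log2 signal of the first genotype named minus that of the second, and a gene was called when the adjusted p of the limma model over all probe sets was under 0.05. Array medians lay between 4.90 and 5.05. The signals of Casp8, Ripk3 and Ikbkb were lower in the arrays labelled as deleted than in the others, with no overlap. Traf2 went against its label, with 6.87 to 7.53 over the 12 arrays labelled as deleted and 6.21 to 6.40 in WT; the position of its probes relative to the deleted part is not known, so this signal does not check the deletion. WT replicate 1 stood apart on the second principal component, at -50.5 against -22.3 to 27.0 for the other 15 arrays. The array names hold a number that was 7 for every TRAF2/Casp-8 KO and RIPK3 triple KO array and 5 for every IKKβ triple KO and WT array, and a letter from A to D for RIPK3 triple KO and WT and from E to H for the other genotypes. If these are positions on a plate, which was not checked against a layout, position cannot be told apart from genotype. TRAF2/Casp-8 KO replicate 4 alone had another array-name prefix.

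Few of the 42 genes were called in any comparison, and Gstk1 was the gene called most often. In TRAF2/Casp-8 KO against WT 1 member was called, Sult1c2, which is 2.38% of the members where 3.31% of all genes were called. In RIPK3 triple KO against TRAF2/Casp-8 KO limma called 0 members, where 0.329% of all genes were called. An unadjusted p under 0.05 was found for 11 members (8 higher, 3 lower), and for 1010 higher and 1081 lower of 18820 genes. In IKKβ triple KO against TRAF2/Casp-8 KO 1 member was called, Gstk1, where 1.02% of all genes were called. In RIPK3 triple KO against WT 1 member was called, again Gstk1, where 3.11% of all genes were called. In IKKβ triple KO against WT limma called 0 members, where 0.0372% of all genes were called. Here 8 members (2 higher, 6 lower) had an unadjusted p under 0.05, as had 522 higher and 692 lower of 18820 genes. In IKKβ triple KO against RIPK3 triple KO 1 member was called, Gstk1, where 2.00% of all genes were called. These shares of called genes lie near the background of each comparison, since a single call is 2.38% of 42 genes. In both comparisons without a call, the share at an unadjusted p under 0.05 was larger among the members than among all genes. It was also larger in the comparisons with a call, except IKKβ triple KO against TRAF2/Casp-8 KO, where it was smaller. Some members moved together from liver to liver, as described below, so these counts are not of independent genes. Comparisons that share a genotype also share its 4 arrays.

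Counts of groups that did not overlap were taken in the same way. The 4 values of one genotype all lay outside the range of the other for 9 members in TRAF2/Casp-8 KO against WT (4 higher and 5 lower, of which 4 had the dim probe sets described below), which is 21.4% of the members where 11.6% of all genes did so. Among genes that were not dim, the share was 16.1% of 31 members and 14.2% of 13161 genes, so the members lay near the background. The counts were 4 in RIPK3 triple KO against TRAF2/Casp-8 KO (9.52%, background 6.87%), 2 in IKKβ triple KO against TRAF2/Casp-8 KO (4.76%, background 7.48%) and 4 in RIPK3 triple KO against WT (9.52%, background 9.08%). They were 2 in IKKβ triple KO against WT (4.76%, background 3.92%) and 1 in IKKβ triple KO against RIPK3 triple KO (2.38%, background 9.01%). The median difference over the members was -0.12 in TRAF2/Casp-8 KO against WT, where it was -0.01 over all genes, and 0.13 in RIPK3 triple KO against TRAF2/Casp-8 KO, where it was 0.00 over all genes. In the other comparisons the members' median lay between -0.09 and 0.04. A total of 11 members had dim probe sets, in the lowest of 3 equal parts of the array by mean signal (up to 3.70), where small differences cannot be read as changes in RNA, and 31 lay above it (15 GST, 9 UGT and 7 SULT). The array files hold no detection calls.

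**Figure D1:**
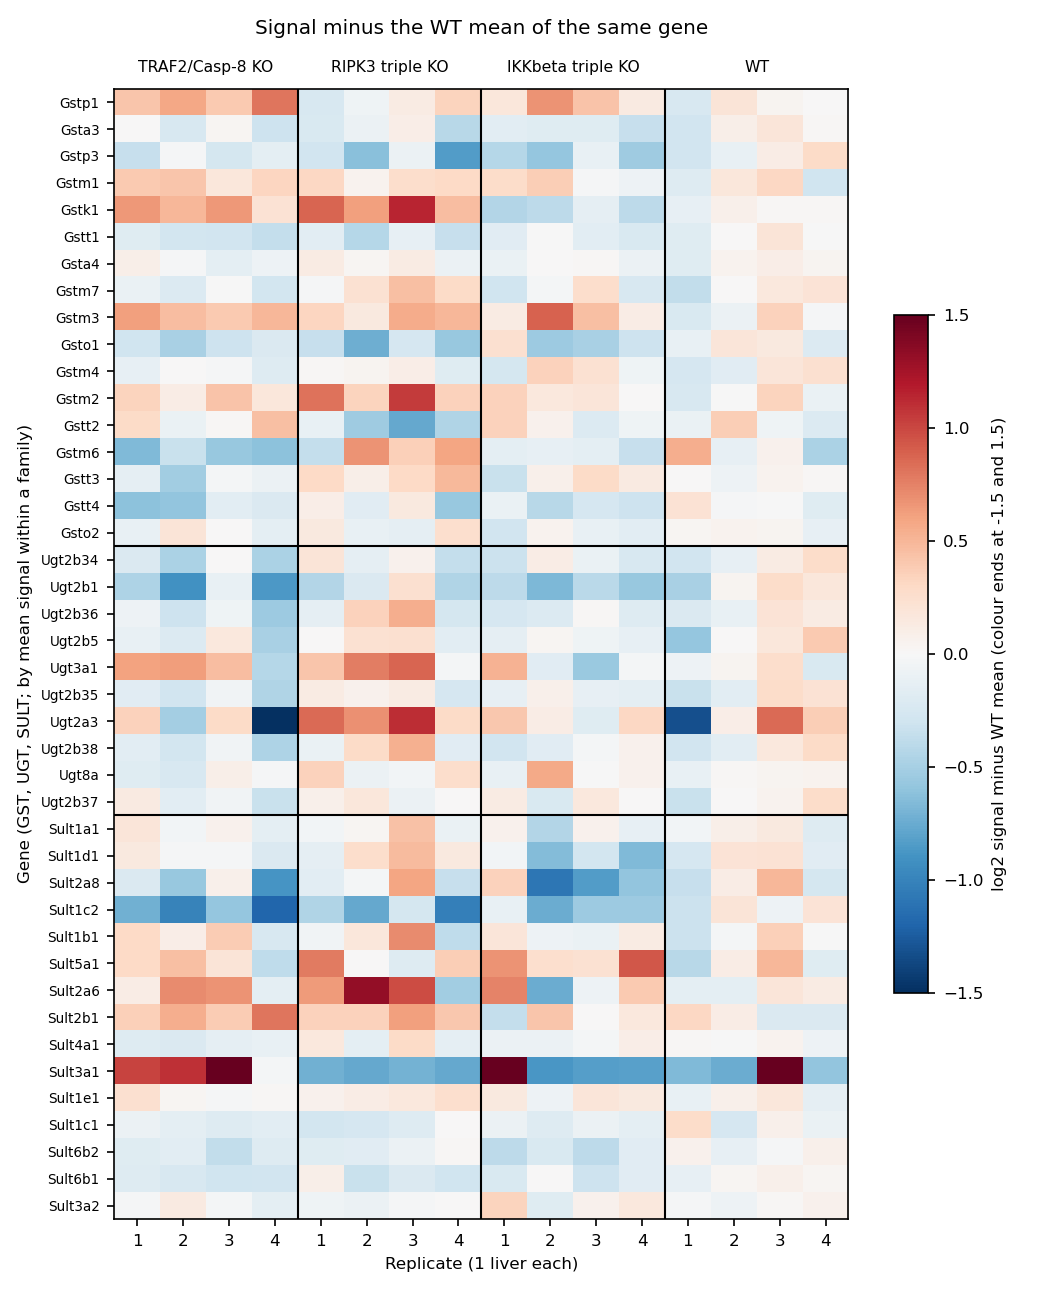
Each row is 1 of the 42 genes and each column 1 liver, and the colour is the log2 signal minus the mean of the 4 WT livers of the same gene, with red above and blue below. Gstk1 is red in every TRAF2/Casp-8 KO and RIPK3 triple KO liver and blue in every IKKβ triple KO liver, Sult1c2 is blue in all 12 knockout livers, and most rows show mixed colours.

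Gstk1, the kappa class GST, which resides in mitochondria and peroxisomes, was the member whose genotypes were furthest apart beyond their spread. Its signal was 10.16, 10.00, 10.16 and 9.72 in TRAF2/Casp-8 KO livers and 10.38, 10.12, 10.65 and 9.97 in RIPK3 triple KO livers. It was 9.07, 9.11, 9.37 and 9.11 in IKKβ triple KO livers, against 9.38, 9.59, 9.53 and 9.53 in WT livers. The TRAF2/Casp-8 KO and RIPK3 triple KO livers overlapped each other and lay above every WT liver, while every IKKβ triple KO liver lay below every WT liver, the nearest pair (9.37 and 9.38) almost meeting. The mean was 10.01 ± 0.20 in TRAF2/Casp-8 KO, 10.28 ± 0.30 in RIPK3 triple KO livers, 9.17 ± 0.14 in IKKβ triple KO and 9.51 ± 0.09 in WT (SD, n = 4 each). The order of the means was therefore RIPK3 triple KO, TRAF2/Casp-8 KO, WT and IKKβ triple KO, and the neighbours in that order did not pass the test.

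Gstk1 fell by 2.16-fold in IKKβ triple KO relative to RIPK3 triple KO livers (difference -1.11 ± 0.14 SE, 95% interval -1.41 to -0.82, limma adjusted p = 0.000794). It fell by 1.79-fold in IKKβ triple KO relative to TRAF2/Casp-8 KO livers (difference -0.84 ± 0.14 SE, 95% interval -1.14 to -0.55, adjusted p = 0.00811). It rose by 1.71-fold in RIPK3 triple KO relative to WT livers (difference 0.77 ± 0.14 SE, 95% interval 0.48 to 1.07, adjusted p = 0.00771), with adjusted p = 0.0560 when only these genotypes entered the model. These calls held with any 1 array of the genotypes compared left out, with adjusted p up to 0.0404 in IKKβ triple KO against TRAF2/Casp-8 KO. The difference was 0.50 in TRAF2/Casp-8 KO against WT (95% interval 0.21 to 0.80, adjusted p = 0.0750), 0.27 in RIPK3 triple KO against TRAF2/Casp-8 KO (95% interval -0.02 to 0.56, adjusted p = 0.538) and -0.34 in IKKβ triple KO against WT (95% interval -0.63 to -0.05, adjusted p = 0.759).

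The 3 comparisons in which Gstk1 was called each set arrays with the number 7 in their names against arrays with the number 5, so a part played by array position cannot be told apart from genotype. The comparisons within a number, RIPK3 triple KO against TRAF2/Casp-8 KO and IKKβ triple KO against WT, called 62 and 7 genes in all, and the other 4 called 192 to 623. Markers of biliary cells differed in the same direction as Gstk1 in the 3 comparisons that called it, but not in every comparison. The mean signal of 6 measured biliary markers was 5.90 to 6.04 in TRAF2/Casp-8 KO, 5.57 to 5.86 in RIPK3 triple KO livers, 4.98 to 5.63 in IKKβ triple KO and 4.94 to 5.23 in WT livers. Of these 6 genes, 4 were called higher in TRAF2/Casp-8 KO than in WT livers, where 3.31% of all genes were called in either direction. In IKKβ triple KO relative to TRAF2/Casp-8 KO livers 3 were called lower, against 1.02% of all genes. In RIPK3 triple KO relative to WT livers 2 were called higher, against 3.11%. In IKKβ triple KO relative to RIPK3 triple KO livers 1 was called lower, against 2.00%. In RIPK3 triple KO against TRAF2/Casp-8 KO the list's median difference was -0.16, where the Gstk1 difference was 0.27. There 1 marker was called lower, against 0.329% of all genes. None was called by limma or had an unadjusted p under 0.05 in IKKβ triple KO against WT, and the median was 0.20, where the Gstk1 difference was -0.34. Their part in the Gstk1 signal was not tested. In whole tissue, fewer cells of a type and less RNA per cell cannot be told apart. The mean of 8 hepatocyte markers was 12.87 to 13.00 in TRAF2/Casp-8 KO, 12.72 to 13.01 in RIPK3 triple KO livers, 12.91 to 13.00 in IKKβ triple KO and 12.96 to 13.08 in WT, and limma called none of the 8 in any comparison. These means lie close to the highest signal of the series, 13.65, so they may show little of a change in hepatocyte share.

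**Figure D2:**
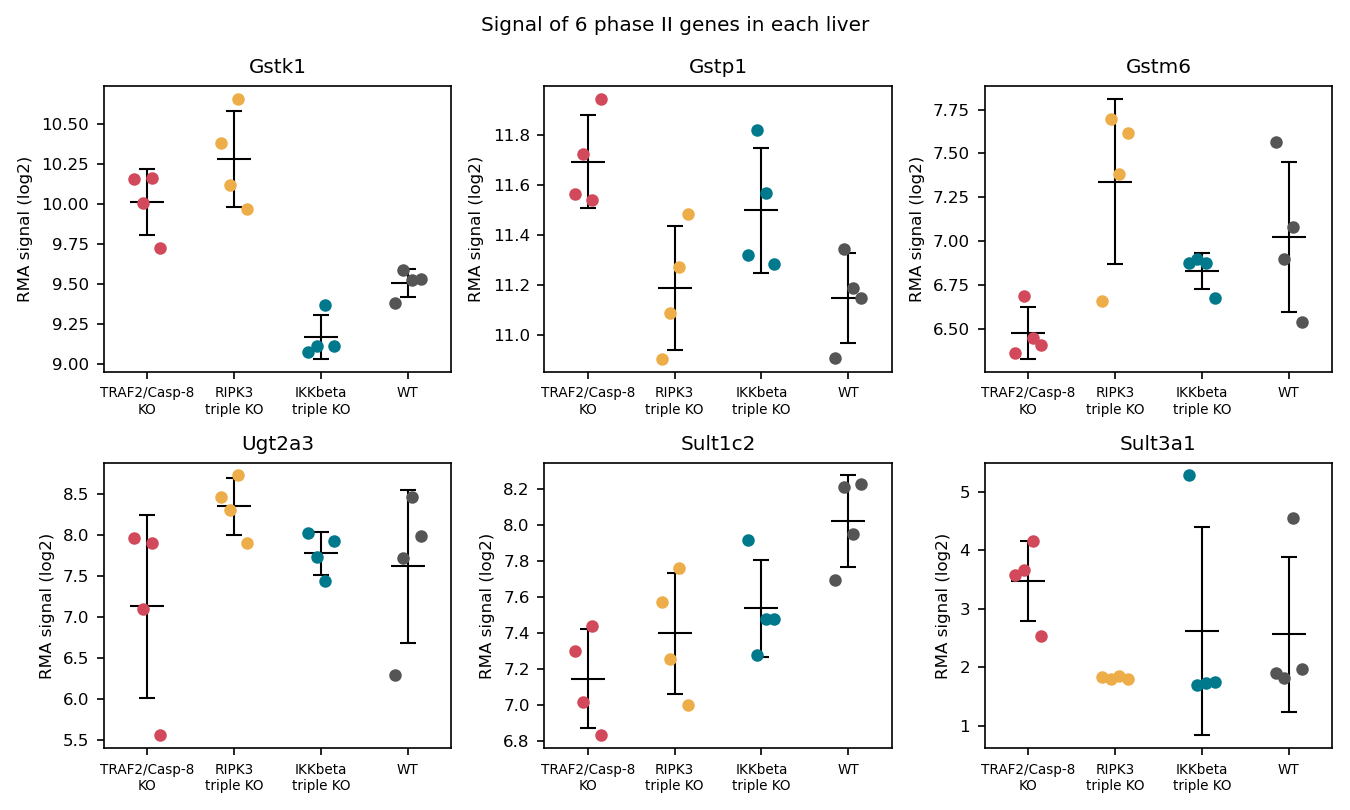
Log2 RMA signal of 6 genes, with 1 point per liver and with the mean and SD of 4 livers drawn as a bar and whiskers. The vertical axes do not start at 0 and differ between panels. Gstk1 separates TRAF2/Casp-8 KO and RIPK3 triple KO from IKKβ triple KO livers, Sult1c2 separates TRAF2/Casp-8 KO from WT livers, and Sult3a1 lies either under 2 or above 2.5 in single livers.

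The promoters of the called members and of Gstp1, which was not called, are shown because NRF2 and AHR are the best known regulators of these families. The windows, from RefSeq on GRCm38.p6, are 300 bases long, span the annotated start with most bases upstream of it, and read 5′ to 3′ on the gene's strand. They are chr6:42245685-42245984 on the plus strand for Gstk1, chr19:4037863-4038162 on the minus strand for Gstp1 and chr17:53845909-53846208 on the minus strand for Sult1c2. Capitals mark a match to GCGTG, the core letters of the xenobiotic response element bound by AHR.
Gstk1: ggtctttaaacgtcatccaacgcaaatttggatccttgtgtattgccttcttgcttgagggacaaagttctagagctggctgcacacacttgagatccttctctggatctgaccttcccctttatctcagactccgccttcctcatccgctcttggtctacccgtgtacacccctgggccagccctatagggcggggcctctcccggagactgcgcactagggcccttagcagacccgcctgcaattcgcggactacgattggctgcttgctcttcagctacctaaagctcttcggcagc
Gstp1: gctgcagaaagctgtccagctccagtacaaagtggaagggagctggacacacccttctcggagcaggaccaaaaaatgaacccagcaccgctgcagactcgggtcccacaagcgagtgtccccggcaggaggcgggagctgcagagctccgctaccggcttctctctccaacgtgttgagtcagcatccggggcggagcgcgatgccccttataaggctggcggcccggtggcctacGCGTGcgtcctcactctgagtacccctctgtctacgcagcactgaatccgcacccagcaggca
Sult1c2: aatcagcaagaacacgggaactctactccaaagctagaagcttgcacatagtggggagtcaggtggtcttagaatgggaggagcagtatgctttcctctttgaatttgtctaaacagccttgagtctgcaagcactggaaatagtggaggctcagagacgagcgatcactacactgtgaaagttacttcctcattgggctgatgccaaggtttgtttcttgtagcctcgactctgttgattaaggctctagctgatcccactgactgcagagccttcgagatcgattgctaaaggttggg
The window of Gstp1 holds GCGTG once, at bases 238 to 242. The windows of Gstk1 and Sult1c2 hold neither it nor TGACNNNGC, a form of the core of the antioxidant response element bound by NRF2. Other forms of that core were not searched for, so the shares below count this form only. The Gstp1 window holds TGAGTCAGC, which differs from TGACNNNGC by a G in place of its first C. A total of 39 members had 49 such windows; Gsta4, Gstt2 and Sult4a1 had none in the table. On either strand, TGACNNNGC was found in 4.08% of the members' windows (those of Gsta3 and Gstm7), against 12.4% of 32851 windows of all genes. GCGTG was found in 18.4% of the members' windows (Gstm1, Gstp1, Gstp3, Sult1b1, Sult1d1, Sult2b1 and Ugt8a), against 32.4% of all windows. A TGACNNNGC match can itself hold GCGTG on the other strand, so the motifs are not independent, and a match describes letters, not binding.

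The genes next to Gstk1 in the RefSeq order (GRCm38.p6) were looked at after its calls were known. None of the 3 nearest protein-coding genes on each side (Sva, Tas2r139, Tas2r144, Tmem139, Casp2 and Clcn1) was called in any of the 6 comparisons. The smallest adjusted p among them was 0.247, for Tmem139, whose difference was -0.39 in IKKβ triple KO against RIPK3 triple KO.

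Among the other GST genes none was called, and Gstp1 and the mu class came nearest. Gstp1 encodes the pi class GST, an abundant hepatic enzyme that also binds the stress kinase JNK. Its signal was 11.56, 11.72, 11.54 and 11.94 in TRAF2/Casp-8 KO, 10.90, 11.09, 11.27 and 11.48 in RIPK3 triple KO livers, 11.32, 11.82, 11.57 and 11.28 in IKKβ triple KO and 10.91, 11.34, 11.19 and 11.15 in WT livers. Every TRAF2/Casp-8 KO liver lay above every RIPK3 triple KO and every WT liver, and the IKKβ triple KO livers overlapped all of them. The difference was 0.55 ± 0.15 SE in TRAF2/Casp-8 KO against WT (95% interval 0.23 to 0.86, adjusted p = 0.0750) and -0.51 ± 0.15 SE in RIPK3 triple KO against TRAF2/Casp-8 KO (95% interval -0.82 to -0.19, adjusted p = 0.241). Gstp1 has a near-identical copy, Gstp2, whose RNA its probes may also read. Gstp3, the other pi class member, showed no such pattern: its difference was -0.19 in TRAF2/Casp-8 KO against WT and -0.46 in RIPK3 triple KO against WT (adjusted p = 0.194).

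The 6 mu class genes, which conjugate many carbon electrophiles and lie next to one another, did not behave as 1 block. Gstm6 was 6.66, 7.70, 7.38 and 7.62 in RIPK3 triple KO livers, against 6.36, 6.69, 6.45 and 6.41 in TRAF2/Casp-8 KO livers. RIPK3 triple KO replicate 1 lay within the range of the TRAF2/Casp-8 KO livers and the other 3 lay above it. The difference was 0.86 ± 0.22 SE (95% interval 0.40 to 1.32, adjusted p = 0.154), and without RIPK3 triple KO replicate 1 it was 1.09 with adjusted p = 0.0314. Gstm6 differed by -0.54 in TRAF2/Casp-8 KO against WT, where WT ran from 6.54 to 7.57 (adjusted p = 0.259). Gstm2, named after its values were seen, was 8.50, 8.03, 8.74 and 8.04 in RIPK3 triple KO and 7.46, 7.69, 8.03 and 7.60 in WT livers. The genotypes touched at 8.03, and the difference of 0.64 ± 0.16 SE had an adjusted p of 0.0509, on the other side of the threshold in several alternatives. Gstm3, likewise named afterwards, was 8.93 to 9.15 in TRAF2/Casp-8 KO and 8.31 to 8.88 in WT livers, with no overlap and a difference of 0.49 (adjusted p = 0.160); its second probe set gave 0.81 (adjusted p = 0.143). Gstm1 was 10.67 to 10.92 in TRAF2/Casp-8 KO and 10.21 to 10.82 in WT livers (difference 0.32, adjusted p = 0.295).

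The theta class, which acts on haloalkanes and other small substrates, pointed both ways. Gstt2 was 6.95, 6.53, 6.29 and 6.60 in RIPK3 triple KO livers, against 7.34, 6.97, 7.08 and 7.52 in TRAF2/Casp-8 KO livers. The genotypes did not overlap, and the difference was -0.63 ± 0.17 SE (95% interval -0.99 to -0.27, adjusted p = 0.183). Gstt3 and Gsto1 were named after their values were seen. Gstt3 was 5.41 to 5.82 in RIPK3 triple KO livers and 4.81 to 5.30 in TRAF2/Casp-8 KO livers, also without overlap but with the higher values in RIPK3 triple KO (difference 0.49, adjusted p = 0.207). Gsto1, an omega class enzyme that reduces dehydroascorbate and thiols, was 7.99 to 8.47 in RIPK3 triple KO and 8.51 to 8.90 in WT livers (difference -0.47, adjusted p = 0.166). Gsta3, the alpha class enzyme that protects mice from aflatoxin, was 11.19 to 11.53 in TRAF2/Casp-8 KO, 11.08 to 11.60 in RIPK3 triple KO, 11.15 to 11.34 in IKKβ triple KO and 11.21 to 11.69 in WT livers, and all genotypes overlapped.

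**Figure D3:**
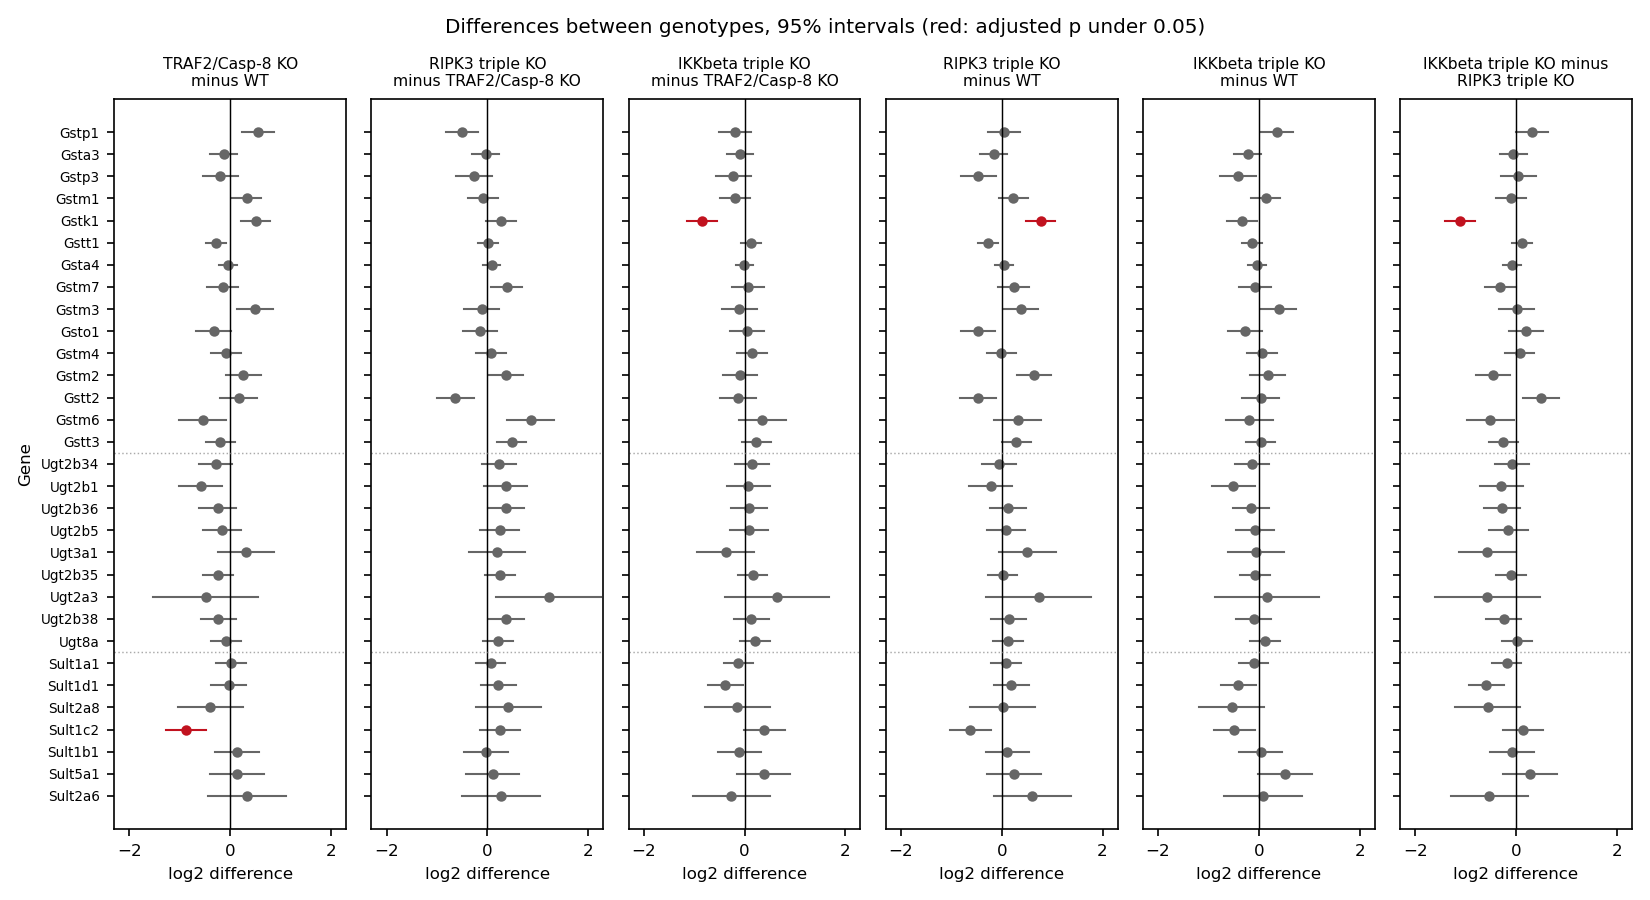
Log2 differences (points) with 95% intervals (lines) of the 31 genes without dim probe sets, 1 panel per comparison, with GST, UGT and SULT genes from top to bottom. Red marks an adjusted p under 0.05, which only Gstk1 (3 panels) and Sult1c2 (1 panel) reached, and all 9 UGT genes shown lie right of 0 in RIPK3 triple KO minus TRAF2/Casp-8 KO.

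No UGT gene was called in any comparison. The UGT differences nevertheless lay mostly on one side within a comparison: 9 of 10 were below 0 in TRAF2/Casp-8 KO against WT (median -0.24, lowest -0.58), and 10 of 10 were above 0 in RIPK3 triple KO against TRAF2/Casp-8 KO (median 0.25, highest 1.22). In IKKβ triple KO against TRAF2/Casp-8 KO 9 of 10 were above 0 as well (median 0.13), and in IKKβ triple KO against RIPK3 triple KO 9 of 10 were below 0 (median -0.20). The count above 0 was 8 of 10 in RIPK3 triple KO against WT (median 0.10) and 3 of 10 in IKKβ triple KO against WT (median -0.08). Over all genes, 47.3% of differences were above 0 in TRAF2/Casp-8 KO against WT and 49.6% in RIPK3 triple KO against TRAF2/Casp-8 KO. The share was 46.2% to 49.9% in the other comparisons. In TRAF2/Casp-8 KO against WT 1 UGT gene had an unadjusted p under 0.05, in RIPK3 triple KO against TRAF2/Casp-8 KO 3 did, and 0 had groups that did not overlap. Of 18820 genes, 1620 higher and 1469 lower had such a p in the first comparison, and 1010 higher and 1081 lower in the other. These comparisons share arrays, so none is a check of another. Of the 10 UGT genes 8 are Ugt2 genes, which moved together from liver to liver as described next. Their signs are therefore not independent, and single livers can weigh on many of them at once.

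The Ugt2 genes, which glucuronidate steroids, bile acids and drugs, moved together from liver to liver within a genotype. Of the 8 Ugt2 members, 7 were not dim, and the promoter windows of all 8 lie on chromosome 5 and hold neither motif. TRAF2/Casp-8 KO replicate 4 had the lowest signal of its genotype in 5 of these 7 genes, RIPK3 triple KO replicate 4 in 7 of 7 and WT replicate 1 in 7 of 7. TRAF2/Casp-8 KO replicate 3 and RIPK3 triple KO replicate 3 each had the highest signal in 6 of 7. No IKKβ triple KO liver was lowest in more than 4 of the 7. The mean signal of 8 neutrophil and myeloid precursor markers was 9.67 in TRAF2/Casp-8 KO replicate 4 against 8.23 to 8.83 in its genotype, 8.88 in RIPK3 triple KO replicate 4 against 6.94 to 7.78, and 10.21 in WT replicate 1 against 8.65 to 9.01. These 3 livers, each lowest within its own genotype in most of the 7 genes, thus had the highest myeloid marker signal of their genotypes. In IKKβ triple KO the liver with the highest marker signal, replicate 4 (9.69, against 8.58 to 9.37), was lowest in 1 of the 7 genes. None of the 8 markers was called by limma in any comparison, but all 8 had an unadjusted p under 0.05, with lower signals, in RIPK3 triple KO against WT, and 5 did in RIPK3 triple KO against TRAF2/Casp-8 KO. Of 18820 genes, 1459 had such a p with lower signals in the first of these comparisons and 1081 in the other. The genotypes overlapped in both comparisons for each of the 8 markers. Within genotypes, other marker means followed the 3 livers in part. Erythroid markers were highest in TRAF2/Casp-8 KO replicate 4 (7.66) and RIPK3 triple KO replicate 4 (7.53), not in WT replicate 1 (7.00). Macrophage markers were highest in RIPK3 triple KO replicate 4 (9.73) and WT replicate 1 (9.86), not in TRAF2/Casp-8 KO replicate 4 (9.33). Hepatocyte markers were lowest in TRAF2/Casp-8 KO replicate 4 (12.87) and WT replicate 1 (12.96), not in RIPK3 triple KO replicate 4 (12.94). The part of any cell type in the Ugt2 signals was not tested.

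**Figure D4:**
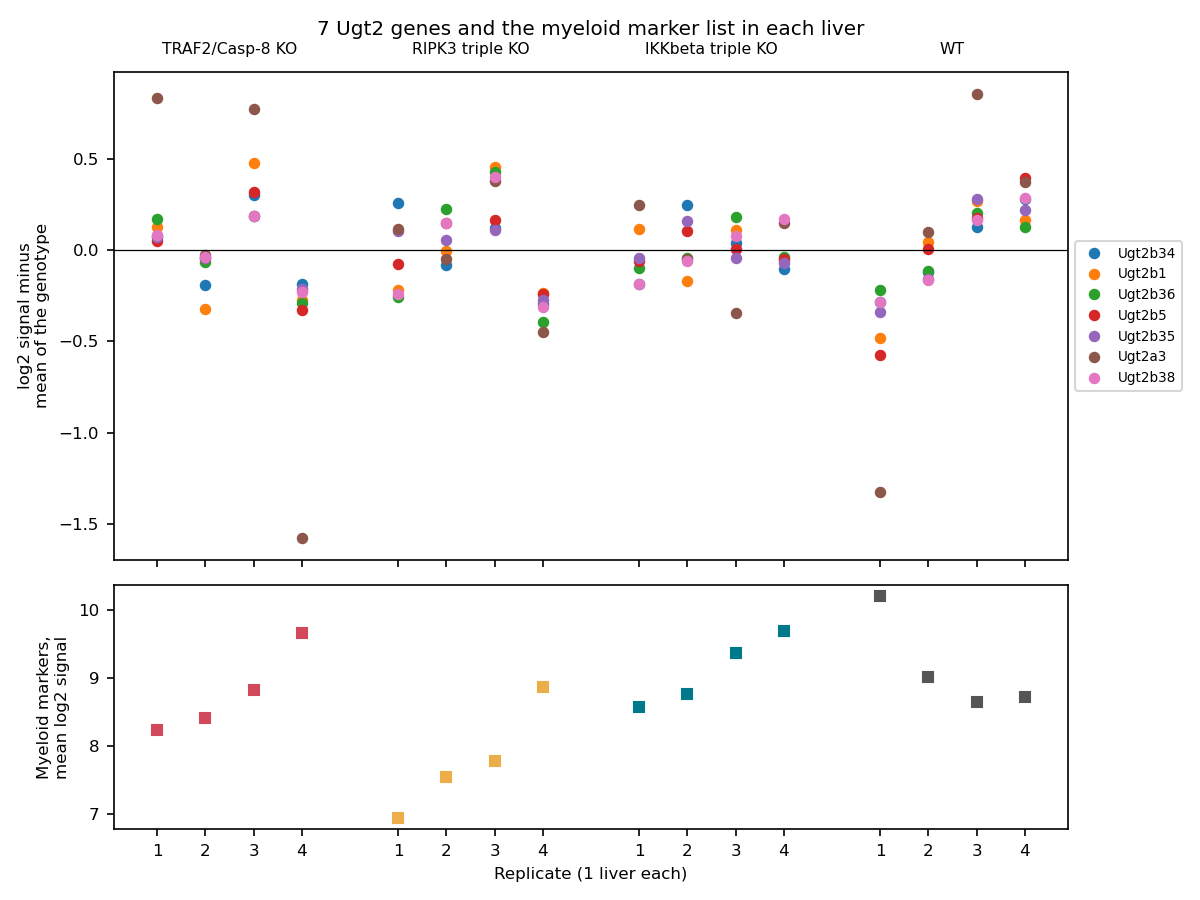
The upper panel gives the log2 signal of 7 Ugt2 genes in each liver minus the mean of the same gene over the 4 livers of that genotype. The lower panel gives the mean log2 signal of 8 neutrophil and myeloid precursor markers in the same livers; TRAF2/Casp-8 KO replicate 4 (9.67), RIPK3 triple KO replicate 4 (8.88) and WT replicate 1 (10.21) are the highest of their genotypes there and lie low in the upper panel.

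Ugt2a3, whose human counterpart glucuronidates bile acids, had the largest spread within genotypes of all members that were not dim (pooled SD 0.76). It was 8.47, 8.30, 8.73 and 7.90 in RIPK3 triple KO livers, against 7.96, 7.10, 7.90 and 5.56 in TRAF2/Casp-8 KO livers. The TRAF2/Casp-8 KO range was stretched by replicate 4, and the genotypes overlapped. The difference was 1.22 ± 0.49 SE (95% interval 0.18 to 2.26, adjusted p = 0.414), and it was 0.69 without TRAF2/Casp-8 KO replicate 4. In WT livers Ugt2a3 was 6.30, 7.72, 8.47 and 7.99, with replicate 1 the lowest. Ugt2b1, a steroid and drug glucuronidating enzyme of the rodent liver, was 9.24 to 10.04 in TRAF2/Casp-8 KO, 9.48 to 9.76 in IKKβ triple KO and 9.67 to 10.42 in WT livers. Its difference was -0.58 in TRAF2/Casp-8 KO against WT (95% interval -1.01 to -0.16, adjusted p = 0.177) and -0.51 in IKKβ triple KO against WT (adjusted p = 0.754). Ugt2b36 was 9.46 to 10.27 in RIPK3 triple KO and 9.19 to 9.66 in TRAF2/Casp-8 KO livers (difference 0.37, adjusted p = 0.481), and Ugt2b38 was 6.54 to 7.25 in RIPK3 triple KO and 6.25 to 6.66 in TRAF2/Casp-8 KO livers (difference 0.38, adjusted p = 0.462). In both genes the genotypes overlapped. Ugt2b34 was 10.73 to 11.22 in TRAF2/Casp-8 KO and 10.92 to 11.48 in WT livers, and Ugt2b5 was 8.57 to 9.22 in TRAF2/Casp-8 KO and 8.48 to 9.45 in WT livers. Ugt3a1, whose human counterpart uses UDP-N-acetylglucosamine as its donor, was 8.38 to 9.29 in RIPK3 triple KO, 7.85 to 8.93 in IKKβ triple KO and 8.18 to 8.67 in WT livers, with differences of 0.51 in RIPK3 triple KO against WT (adjusted p = 0.413) and -0.57 in IKKβ triple KO against RIPK3 triple KO (adjusted p = 0.326).

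Sult1c2, a sulfotransferase of the family that acts on phenols and aromatic hydroxylamines, was the called SULT gene. It was 7.30, 7.02, 7.44 and 6.83 in TRAF2/Casp-8 KO livers, 7.57, 7.26, 7.76 and 7.00 in RIPK3 triple KO livers and 7.92, 7.28, 7.48 and 7.47 in IKKβ triple KO livers, against 7.69, 8.21, 7.95 and 8.23 in WT livers. Every TRAF2/Casp-8 KO liver lay below every WT liver, whereas the triple knockout ranges reached into the WT range. Sult1c2 fell by 1.83-fold in TRAF2/Casp-8 KO relative to WT livers (difference -0.88 ± 0.19 SE, 95% interval -1.28 to -0.47, limma adjusted p = 0.0234). Leaving out WT replicate 2, 3 or 4, or else TRAF2/Casp-8 KO replicate 2 or 4, ended the call, with differences of -0.90 to -0.77 and adjusted p of 0.0554 to 0.0869. The difference was -0.62 in RIPK3 triple KO against WT (95% interval -1.03 to -0.22, adjusted p = 0.114) and -0.48 in IKKβ triple KO against WT (95% interval -0.89 to -0.08, adjusted p = 0.741). It was 0.25 in RIPK3 triple KO against TRAF2/Casp-8 KO (95% interval -0.15 to 0.65) and 0.39 in IKKβ triple KO against TRAF2/Casp-8 KO (95% interval -0.01 to 0.79), neither of which passed. The neighbouring family member Sult1c1, which was dim and is named only for its place, differed by -0.15 in TRAF2/Casp-8 KO against WT (adjusted p = 0.570).

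The other SULT genes were not called. Sult1d1, which sulfonates catecholamines and related amines in mice, was 9.78, 9.17, 9.55 and 9.16 in IKKβ triple KO livers, against 9.70, 10.09, 10.30 and 9.97 in RIPK3 triple KO livers. Only IKKβ triple KO replicate 1 reached the RIPK3 triple KO range. The difference was -0.59 ± 0.16 SE (95% interval -0.94 to -0.25, adjusted p = 0.0911), and without IKKβ triple KO replicate 1 it was -0.72 with adjusted p = 0.0323. Sult1a1, the main phenol sulfotransferase, kept within 9.83 to 10.71 over all 16 livers, and its genotypes overlapped in every comparison. Sult2a8, which sulfonates bile acids in mouse liver, was 8.48 to 9.43 in TRAF2/Casp-8 KO, 9.01 to 9.95 in RIPK3 triple KO, 8.27 to 9.70 in IKKβ triple KO and 9.01 to 9.86 in WT livers. Sult2b1, a cholesterol sulfotransferase better known from skin and dim here, was 3.77 to 4.22 in TRAF2/Casp-8 KO and 3.19 to 3.73 in WT livers, with no overlap and a difference of 0.52 (adjusted p = 0.125). Sult6b2, also dim, was 2.00 to 2.21 in IKKβ triple KO and 2.27 to 2.47 in WT livers, without overlap (difference -0.30, adjusted p = 0.507). The lowest SULT signal of a genotype was in TRAF2/Casp-8 KO replicate 4 for 7 of 7 SULT genes that were not dim, in WT replicate 1 for 6 of 7 and in RIPK3 triple KO replicate 4 for 5 of 7.

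Sult3a1, an amine sulfotransferase that is higher in adult female than in adult male mouse liver, was high or low in single livers rather than by genotype alone. It was 3.57, 3.65, 4.16 and 2.53 in TRAF2/Casp-8 KO livers and 1.84, 1.79, 1.86 and 1.79 in RIPK3 triple KO livers. It was 5.28, 1.69, 1.73 and 1.75 in IKKβ triple KO livers, against 1.90, 1.82, 4.55 and 1.97 in WT livers. All 4 TRAF2/Casp-8 KO livers lay above all 4 RIPK3 triple KO livers, while 1 IKKβ triple KO liver and 1 WT liver held the highest values of the series. The difference was -1.66 ± 0.74 SE in RIPK3 triple KO against TRAF2/Casp-8 KO (95% interval -3.24 to -0.08, adjusted p = 0.473) and 0.92 ± 0.74 SE in TRAF2/Casp-8 KO against WT (adjusted p = 0.652). Its probe set was among the dim ones, and its related member Sult3a2, named for comparison after the values were seen, stayed between 1.71 and 2.23 in all livers.

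Genes that supply the conjugating enzymes or regulate them were read from 7 lists. Of 11 measured NRF2 target genes 1 was called in TRAF2/Casp-8 KO against WT, where 3.31% of all genes were called, and 0 in the other comparisons. The called gene was Gclc, the catalytic subunit of the rate-limiting enzyme of glutathione synthesis, which fell by 1.52-fold in TRAF2/Casp-8 KO relative to WT livers. Gclc was 10.62, 10.58, 10.75 and 10.41 in TRAF2/Casp-8 KO and 11.05, 11.11, 11.33 and 11.29 in WT livers (difference -0.60 ± 0.13 SE, limma adjusted p = 0.0236). Leaving out WT replicate 3 or 4, or else TRAF2/Casp-8 KO replicate 1 or 4, ended the call, with adjusted p up to 0.0877. The median difference of the 11 genes was 0.01, against -0.01 over all genes.

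Of 10 measured xenobiotic sensors and regulators 2 were called in TRAF2/Casp-8 KO against WT, where 3.31% of all genes were called. Nfe2l2, which encodes NRF2, rose by 2.18-fold: it was 9.45, 9.04, 9.64 and 9.48 in TRAF2/Casp-8 KO and 8.91, 7.83, 8.06 and 8.34 in WT livers (difference 1.12 ± 0.25 SE, limma adjusted p = 0.0316). Leaving out WT replicate 2, 3 or 4, or else TRAF2/Casp-8 KO replicate 1, 3 or 4, ended that call, with adjusted p up to 0.102, as did a model with only these genotypes (adjusted p = 0.0617). Rxra, the partner of the receptors CAR and PXR, fell by 1.39-fold (difference -0.47 ± 0.08 SE, adjusted p = 0.00420), a call that held without any 1 array. Arnt, the partner of AHR, was called higher in RIPK3 triple KO than in WT livers and lower in IKKβ triple KO than in RIPK3 triple KO livers (differences 0.33 and -0.35). Arnt lost the first call without any 1 of the 8 arrays compared and the second without 7 of 8.

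Of 6 measured glutathione supply genes, which include Gclc, Cth, the enzyme that makes cysteine from cystathionine, set RIPK3 triple KO apart. It was 10.54, 11.16, 11.46 and 11.16 in RIPK3 triple KO livers, 10.33, 9.88, 10.34 and 9.72 in TRAF2/Casp-8 KO livers, 9.95, 9.85, 10.08 and 10.19 in IKKβ triple KO livers and 9.99, 10.17, 10.36 and 10.04 in WT livers. All RIPK3 triple KO livers lay above all others. Cth rose by 1.92-fold in RIPK3 triple KO relative to WT livers (adjusted p = 0.0131) and fell by 2.09-fold in IKKβ triple KO relative to RIPK3 triple KO livers (adjusted p = 0.00889), and both calls held without any 1 array. With only the genotypes compared in the model, the adjusted p was 0.0633 in RIPK3 triple KO against WT, which ends that call. Its rise of 2.02-fold in RIPK3 triple KO relative to TRAF2/Casp-8 KO livers (adjusted p = 0.0302) ended when RIPK3 triple KO replicate 2, 3 or 4, or else TRAF2/Casp-8 KO replicate 2 or 4, was left out (adjusted p up to 0.122), and with only these genotypes in the model (adjusted p = 0.187). Gsr, glutathione reductase, rose by 1.40-fold in IKKβ triple KO relative to RIPK3 triple KO livers (difference 0.49 ± 0.08 SE, adjusted p = 0.00870), but with only these genotypes in the model the adjusted p of Gsr was 0.0811.

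Of the 3 genes of UDP-glucuronate supply, Slc35d1, which carries the UGT donor into the endoplasmic reticulum, fell by 1.35-fold in RIPK3 triple KO relative to WT livers (difference -0.44 ± 0.09 SE, adjusted p = 0.0237). It ended when RIPK3 triple KO replicate 1, 2 or 4, or else WT replicate 2, 3 or 4, was left out (adjusted p up to 0.0806), and with only these genotypes in the model (adjusted p = 0.0855). None of the 5 genes that make or carry PAPS and none of the 6 efflux transporters was called by limma in any comparison; at an unadjusted p under 0.05 there were up to 1 and up to 2 in a comparison. Of 13 measured other conjugating enzymes 1 was called in each of 3 comparisons, where 2.00% to 3.31% of all genes were called. Mgst2, a microsomal GST of another protein family, was 6.82, 6.72, 6.85 and 6.66 in TRAF2/Casp-8 KO, 6.58, 6.85, 7.09 and 6.40 in RIPK3 triple KO livers, 6.24, 5.75, 6.35 and 6.42 in IKKβ triple KO and 5.64, 5.53, 5.39 and 5.05 in WT livers. Every knockout liver lay above every WT liver. Mgst2 rose by 2.57-fold in TRAF2/Casp-8 KO (adjusted p = 0.000427) and by 2.51-fold in RIPK3 triple KO (adjusted p = 0.000574), both relative to WT livers. Mgst3, its relative, rose by 1.75-fold in IKKβ triple KO relative to RIPK3 triple KO livers (adjusted p = 0.0114). The calls of Gsr, Mgst2 and Mgst3 held without any 1 array.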

How the data were processed

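The authors deposited log2 RMA signals of 16 arrays, per the submitters' processing notes; the version is not given in the sources used here. WT mice were littermates, but which animals shared a litter is not given, so p-values measure only the spread between these livers. Of 35556 probe sets 21218 had 1 gene symbol in GEO's platform annotation, 1881 had several and 12457 had none; only single symbols were used. All 4 genotypes were fitted on all probe sets with limma 3.58.1 in R 4.3.3, with no covariate, with the Benjamini-Hochberg adjustment across the whole array in each of 6 comparisons; the code was tested on simulated data. Genes were named when called, among the 4 with the highest mean signal of their family, or among the 2 with the smallest adjusted p where a family had no call. Members and lists were chosen with earlier results of these data known. Promoters came from RefSeq (GRCm38.p6). Replicate numbers showed no strong pairing of the livers: deviations of same-numbered livers correlated at -0.10 to 0.16, and 4 of 24 pairs exceeded 0.1. Of these, 3 were in IKKβ triple KO against TRAF2/Casp-8 KO, where same-numbered arrays also share a letter and the other pair was at -0.02. In RIPK3 triple KO against WT, where they share one too, the values were -0.10 to 0.02. Differently numbered livers were not compared in this way, so a weak pairing cannot be judged. Alternatives changed the eBayes settings, array weights, groups in the model, dim probe sets, normalization, centring, blocks, probe set per gene, fold minimum and single arrays. No columns (0) were left unused. Precision is limited by the number of arrays. Figures were drawn with matplotlib 3.10.9.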

Additional observations from a re-analysis of the deposited data

Results flagged for a closer look

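Single livers stood apart from the other 3 of their genotype in 5 of the genes named above, in 6 of 92 groups of 4 looked at, where chance gives about 1 in 20. Gsta3 was 11.15 in IKKβ triple KO replicate 4, against 11.32 to 11.34 in the others of that genotype. Gstk1 was 9.37 in IKKβ triple KO replicate 3, against 9.07 to 9.11. Gstm6 was 6.68 in IKKβ triple KO replicate 4, against 6.87 to 6.90. Ugt3a1 was 7.98 in TRAF2/Casp-8 KO replicate 4, against 8.87 to 9.03. Sult3a1 was 5.28 in IKKβ triple KO replicate 1, against 1.69 to 1.75, and 4.55 in WT replicate 3, against 1.82 to 1.97.

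A pair of probe sets that list several pi class symbols, and so stand for no single gene, were called in TRAF2/Casp-8 KO against WT livers. The differences were 0.61 (limma adjusted p = 0.0334) and 0.62 (adjusted p = 0.0380), and in both every TRAF2/Casp-8 KO liver lay above every WT liver. Both calls were lost without WT replicate 1, 3 or 4 or TRAF2/Casp-8 KO replicate 1, 2 or 4, with adjusted p up to 0.113 and 0.127. With only these genotypes in the model the adjusted p-values were 0.0698 and 0.0724.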

How the results depend on the processing

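No difference that was rerun reversed under any alternative. Those rerun were of genes named by the rule, members at an unadjusted p under 0.05 or without overlap, and called list genes and probe sets. Many were thus chosen for their size, so a kept sign says little, and some smaller differences given above were not rerun. In TRAF2/Casp-8 KO against WT 1 member was called as reported; array weights gave 4 (Gstk1, Gstp1, Sult1c2 and Sult2b1), a minimum of 2-fold gave 0, and leaving out WT array 1 and TRAF2/Casp-8 KO array 4 together, chosen after seeing the data, gave 0. In RIPK3 triple KO against TRAF2/Casp-8 KO the count of 0 became 1 (Gstm6) with array weights. In IKKβ triple KO against TRAF2/Casp-8 KO the count of 1 became 0 with a minimum of 2-fold. In RIPK3 triple KO against WT the count of 1 became 2 (Gstk1 and Gstm2) with an intensity trend and robust eBayes, without the dim probe sets, with quantile normalization again, with median centring and with the array-name letter as a random block; it was 0 with only the 2 groups in the model and 0 with a minimum of 2-fold. In IKKβ triple KO against RIPK3 triple KO the count of 1 became 2 (Gstk1 and Sult1d1) with array weights. With the replicate block, a pairing of which no strong sign was seen, the count was 2 in RIPK3 triple KO against WT, and no other count of called members changed. The cause of these shifts was not tested.

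Leaving out 1 array at a time gave 0 to 1 calls in TRAF2/Casp-8 KO against WT, 0 to 1 in RIPK3 triple KO against TRAF2/Casp-8 KO, 1 in every case in IKKβ triple KO against TRAF2/Casp-8 KO, 1 to 2 in RIPK3 triple KO against WT, 0 in every case in IKKβ triple KO against WT and 1 to 2 in IKKβ triple KO against RIPK3 triple KO. Over single genes and probe sets, 1424 alternative values kept their side of the threshold, 86 lost it and 16 passed it. Dim probe sets limit what can be read for 11 members.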

Other observations

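Besides the pi class pair above, 12 probe sets list several symbols, at least 1 of them of these families, and stand for no single gene. Among them, 4 list several alpha class symbols and read overlapping transcripts, so they are not independent of one another. Their differences were 0.76 to 0.85 in TRAF2/Casp-8 KO against WT, where every TRAF2/Casp-8 KO liver lay above every WT liver in each of the 4 (limma adjusted p = 0.0814 to 0.126). They were -0.92 to -0.83 in IKKβ triple KO against TRAF2/Casp-8 KO, again without overlap (adjusted p = 0.121 to 0.186). In RIPK3 triple KO against WT they were 0.77 to 0.84, with overlap in some of the 4 (adjusted p = 0.0823 to 0.122). In IKKβ triple KO against RIPK3 triple KO they were -0.91 to -0.85, with overlap in each (adjusted p = 0.0718 to 0.0993). None of the 4 was called in any comparison. Alpha class GST enzymes detoxify lipid peroxidation products and bind bilirubin and steroids.

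The genes beside Sult1c2 were looked at in the same way as those beside Gstk1. Of the 3 nearest protein-coding genes on each side (Pp2d1, Kat2b, Sgo1, Sult1c1, Slc5a7 and St6gal2) none was called in any of the 6 comparisons, and the smallest adjusted p was 0.285, for Sgo1.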
